A study of Homo sapiens with 4 samples.

Results

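The clustered protocadherins are cell-surface adhesion proteins encoded by 3 neighbouring gene clusters, alpha, beta and gamma, on human chromosome 5. They were taken by gene symbol from the deposited count table, which gave 53 genes of the 28775 in the table, made up of 15 PCDHA, 16 PCDHB and 22 PCDHG genes. The values are RNA-seq read-pair counts from HEK293T cells, a transformed human embryonic kidney line that carries a viral large T antigen. The 2 MORC2 KO samples were bulk cultures, not clones, edited by electroporation of Cas9 ribonucleoprotein with sgRNA 1 (replicate 1) or sgRNA 2 (replicate 2), and the 2 WT samples were unedited cells of the same line. With 2 samples per genotype, p-values measure only the spread between these samples, and a bulk count cannot tell more cells with a transcript from more transcript per cell.

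MORC2 is a chromatin ATPase of the microrchidia family that works with the HUSH silencing complex. Clustered protocadherins give neurons a surface identity, in that each cell expresses its own combination and the proteins bind only to matching partners on other cells. In the alpha and gamma clusters each gene has its own promoter and its own large first exon, which encodes the extracellular, membrane-spanning and near cytoplasmic parts, and this exon is spliced to constant exons that give all members of the cluster the same cytoplasmic end. The beta genes are mostly single-exon genes with no constant exons. The promoters are often methylated and silent in most non-neural cells, and CTCF and cohesin loop the active ones to distant enhancers.

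Counts summed to between 53970043 and 64312514 read pairs per sample, and 16675 genes passed the filter on low counts. MORC2 itself had 3064 and 3637 read pairs in the edited cultures and 5131 and 4669 in WT. As CPM, which are counts scaled to library size, this is 53.1 ± 2.69 against 87.0 ± 1.06 (SD, n = 2), or 61.1% of the WT level (log2 fold change -0.71, edgeR quasi-likelihood test, adjusted p = 1.37e-04). The samples thus matched their labels in direction, while protein was not measured in these files. All 8 markers of the HEK293 line passed the filter and 0 of them were called by edgeR. At an unadjusted p under 0.05, 1 was higher and 0 lower, against 8.14% and 6.17% of all tested genes. NEFM, INA and HMGA2 had the smallest p among the 8 markers, with log2 fold changes of 0.44, 0.12 and -0.14. Of the 10 markers of leukocytes, endothelium, fibroblasts, liver and glia, 5 were tested and 0 called, also at an unadjusted p under 0.05, and 3 had fewer than 10 read pairs in all. The fibroblast genes COL1A1 and COL3A1 were among those with the smallest p, with log2 fold changes of -0.29 and -0.54. The 10 markers summed to between 4.63 and 4.72 CPM in MORC2 KO and between 4.70 and 5.80 CPM in WT.

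The 3 clusters lie in a stretch of 727 kb, all members on the plus strand, and they differ in how much of each gene can be counted. On T2T-CHM13v2.0, the build of the files, alpha spans chr5:141311469-141537634, beta chr5:141576666-141774671 and gamma chr5:141855819-142038959. All 15 alpha genes end in the same 3 constant exons of 59, 89 and 2721 bases, and all 22 gamma genes in 3 constant exons of 59, 89 and 2029 bases. Read pairs that overlap more than 1 gene were left out of the counts, so a read pair inside these exons was counted for no gene. Each alpha member therefore shared at least 2869 bases, which was from 21.4% to 97.7% of its exonic length, and each gamma member 2177 bases, from 27.4% to 45.8%.

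The beta genes, with 1 exon each, shared nothing with each other, and the single overlap there was 101 bases of PCDHB1 with the antisense transcript PCDHB1-AS1. PCDHA11 kept 163 unshared bases, because it overlaps PCDHA10 and the antisense LOC112267934 as well as the constant exons, so its count says little about its level. Counts of alpha and gamma members were thus mainly counts of the variable first exons, which are what distinguishes the members. Levels of different members are compared below only per kb of unshared exonic length.

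**Figure D1:**
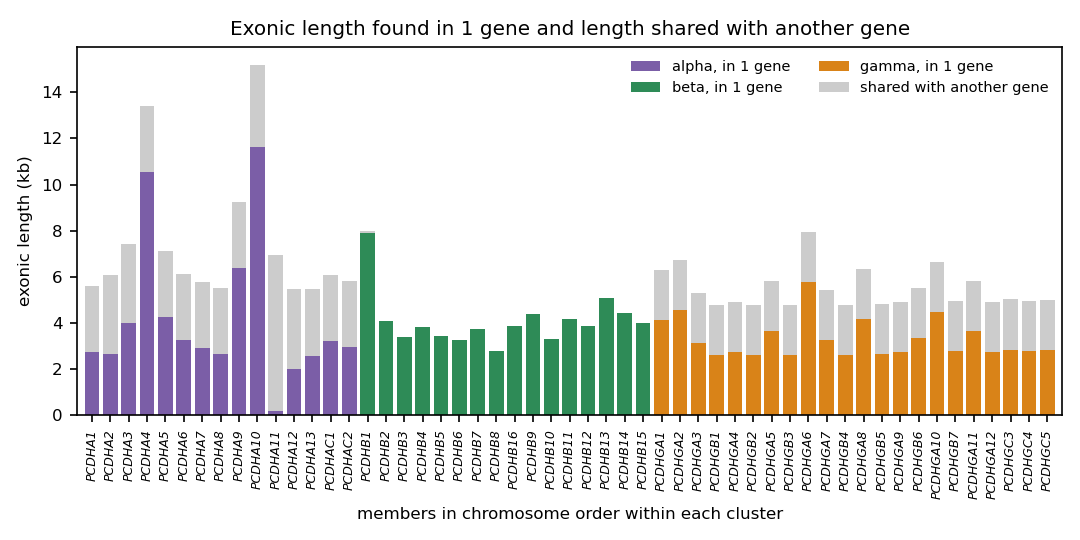
Exonic length in kb of the 53 members, in chromosome order within each cluster, as bars split into bases found in 1 gene (coloured by cluster) and bases shared with another gene (grey). The grey part is 2177 bases in every gamma member and at least 2869 in every alpha member, and is absent from the beta members except 101 bases of PCDHB1.

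Near-identical coding sequence was a further limit. Among 65-base windows of GENCODE 29 transcripts, the length of a sequenced read, PCDHB8 shared 38.5% with another member, mostly PCDHB13, whereas PCDHB1 shared 0%. In the gamma cluster most shared windows lie in the constant exons, which were counted for no gene. PCDHGC4 and PCDHGC5 shared 2120 windows and PCDHGA11 2128, so these had almost no further sharing, whereas PCDHGA1 shared 2337, with PCDHGA3 closest to it. A read pair that matches several places could be counted at either copy. PCDHGA3 had 2 and 5 read pairs in MORC2 KO against 5 and 0.

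Most members were barely expressed in these cells. Of the 53 genes, 4 had no read pair in any sample, which were PCDHA2, PCDHA6, PCDHAC2 and PCDHB1, and a count of 0 over the 4 libraries together allows a level of up to 0.0126 CPM (3 counts, counting error only). Another 15 had fewer than 10 read pairs in all 4 samples together, for 19 under that number in total. The gamma cluster took 83.5% of the 3756 read pairs on members, beta 13.8% and alpha 2.69%. Within gamma, PCDHGA11, PCDHGC4, PCDHGC3, PCDHGA1 and PCDHGA7 took 85.4% of the counts, and these 5 were the members with over 100 read pairs.

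PCDHGA11, a gamma subfamily A member, had the highest level in WT, at 1.18 ± 0.0103 CPM per unshared kb (SD, n = 2). It was followed by the C-type genes PCDHGC4 at 0.705 ± 0.110 and PCDHGC3 at 0.397 ± 0.0263. These 3 were separated by more than the spread of the WT samples. PCDHGB7 at 0.133 ± 0.0332 and PCDHGA7 at 0.131 ± 0.0180 came next and lay within each other's spread. PCDHGA1 was at 0.118 and 0.0820 in the 2 WT samples, below PCDHGA7 at 0.119 and 0.144 by a narrow margin. The PCDHGB7 samples, at 0.110 and 0.157, overlapped those of both. The most expressed beta genes were PCDHB14 at 0.0712 ± 0.0285 and PCDHB12 at 0.0608 ± 0.0243, again not separated from each other. All of these are low for this line, since the median over all tested genes was 5.18 CPM per unshared kb in the mean of the 4 samples.

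Of the 53 members, 16 passed the filter on low counts, 9 in the gamma cluster, 7 in beta and 0 in alpha. Among the 16, 7 did not reach the filter's level of 0.166 CPM in both WT samples and so passed through their MORC2 KO values. A higher value was built into their selection, and counts over the tested members are given as a description. The test called 2 members higher in MORC2 KO, PCDHGA1 and PCDHGA11, and 0 lower, where 0.588% of all tested genes were called higher and 0.03% lower. At an unadjusted p under 0.05, 6 members were higher and 0 lower, against 8.14% and 6.17% of all tested genes, and those 6 were all gamma genes. DESeq2 also called 2 members higher and 0 lower, with no adjusted p for low members such as PCDHB2 and PCDHB8. With no filter on low counts 4 members were called higher, with PCDHGC3 and PCDHGA7 added, in a fit that called 2.04% of all genes higher. Both MORC2 KO samples were above both WT samples in 11 of the 16 tested members and below in 0, where 24.1% of all tested genes were above and 23.4% below.

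PCDHGA1 is the first gene of the gamma cluster. It had 91 and 99 read pairs in the edited cultures and 29 and 18 in WT, or 1.51 ± 0.0167 against 0.413 ± 0.105 CPM (SD, n = 2). The groups did not overlap, and the lower MORC2 KO sample was well above the higher WT sample. The log2 fold change was 1.86 (SE 0.27, 95% confidence interval 1.26 to 2.45, adjusted p = 0.00671), a 3.62-fold difference. PCDHGA11, the most abundant member, had 384 and 507 read pairs against 254 and 230, or 6.42 and 7.67 CPM against 4.27 and 4.32. Here too the groups were separate, with the WT samples close together and the MORC2 KO samples further apart. Its log2 fold change was 0.72 (SE 0.13, 0.44 to 0.99, adjusted p = 0.0230), a 1.64-fold difference. The 95% intervals of the 2 genes did not overlap, although the difference between them was not tested.

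The sequences before these 2 genes are shown because they are the promoters of the members that passed the test and hold the letters that members of the family have in common. They come from RefSeq on GRCh38.p14, plus strand, and cover the 250 bases before the annotated start, at chr5:141330264-141330513 for PCDHGA1 and chr5:141420801-141421050 for PCDHGA11. Capitals mark matches to GNCGCTG, which holds the CGCT core of the conserved element known to lie upstream of most clustered protocadherin exons and to bind CTCF.
PCDHGA1: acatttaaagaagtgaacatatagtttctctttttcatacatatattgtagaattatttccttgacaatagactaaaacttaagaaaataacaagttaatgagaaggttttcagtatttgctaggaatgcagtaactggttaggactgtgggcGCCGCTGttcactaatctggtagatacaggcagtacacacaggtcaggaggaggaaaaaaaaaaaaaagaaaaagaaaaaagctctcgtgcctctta
PCDHGA11: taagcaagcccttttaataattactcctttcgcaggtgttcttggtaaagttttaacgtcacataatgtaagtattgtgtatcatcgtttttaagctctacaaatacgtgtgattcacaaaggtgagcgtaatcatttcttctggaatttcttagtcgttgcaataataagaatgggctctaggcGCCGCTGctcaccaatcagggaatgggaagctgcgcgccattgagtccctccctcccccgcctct
The match began 97 bases before the start of PCDHGA1 and 65 bases before that of PCDHGA11, with the same 7 letters in both.

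The same letters were looked for in all 47 members whose promoter was found in the RefSeq table, leaving PCDHA3, PCDHA13, PCDHB6, PCDHB11, PCDHGA12 and PCDHGC5 without one. The 7 letters were chosen after the members' promoters had been seen, so the counts describe the family and test nothing. On the gene's strand, GNCGCTG was found before 18 of 20 gamma genes, 11 of 14 beta genes and 6 of 13 alpha genes, and before 13.4% of 27305 genes in the table, or 23.2% on either strand. A match needs the last G. Members without a match, among them PCDHA4, PCDHA7, PCDHA11, PCDHA12, PCDHB14 and PCDHGB3, can hold GNCGCT followed by another letter. The counts are therefore not counts of promoters with the CGCT core. The second letter set beta apart but did not fully separate alpha from gamma. It was T before all 6 alpha genes with a match and G before all 11 beta genes. Among the gamma genes, 12 had GCCGCTG, 6 had GTCGCTG and 2 had GACGCTG, with PCDHGC3 and PCDHGB1 holding more than 1 form. Counted from each annotated start, the nearest match lay 40 to 57 bases before it in alpha, 13 to 81 in beta and 41 to 208 in gamma. The 208 belongs to a second start of PCDHGC4, and the same match lies 64 bases before the other start of that gene. PCDHGB2 has its match 201 bases before its start, and a second start of PCDHGB1 has its nearest match at 130. Windows of 45 bases around the match are shown for members of each cluster. These windows set the shared letters of alpha and beta genes beside those of gamma genes at the levels described here. They lie at chr5:140786081-140786125 for PCDHA1, chr5:140855836-140855880 for PCDHA10, chr5:141094539-141094583 for PCDHB2, chr5:141245309-141245353 for PCDHB15, chr5:141382644-141382688 for PCDHGA7 and chr5:141484947-141484991 for PCDHGC4.
PCDHA1: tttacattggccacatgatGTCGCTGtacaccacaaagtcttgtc
PCDHA10: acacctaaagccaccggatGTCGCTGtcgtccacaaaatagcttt
PCDHB2: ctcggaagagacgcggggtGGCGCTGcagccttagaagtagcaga
PCDHB15: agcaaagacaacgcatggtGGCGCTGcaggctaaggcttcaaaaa
PCDHGA7: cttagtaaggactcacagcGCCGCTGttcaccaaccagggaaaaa
PCDHGC4: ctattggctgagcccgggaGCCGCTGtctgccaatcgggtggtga
The called genes PCDHGA1 and PCDHGA11 shared their form of the 7 letters with PCDHGA7 and PCDHGC4, which were not called. A match is a stretch of letters and not a measured binding site. It does not show that a gene, such as PCDHGC4, holds the whole conserved element.

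The remaining tested gamma genes did not pass the test, and all but 1 had a higher mean in MORC2 KO. PCDHGC3, a C-type gene that many cell types express and whose promoter lies near the end of the cluster, had 108 and 155 read pairs in MORC2 KO and 70 and 57 in WT. The groups did not overlap, with a log2 fold change of 0.89 (SE 0.21, adjusted p = 0.112). PCDHGA7 had 43 and 70 against 23 and 25, also without overlap, with a log2 fold change of 1.06 (SE 0.32, adjusted p = 0.198). In both genes the MORC2 KO samples were more spread than the WT samples. PCDHGC3 and PCDHGA7 passed the threshold when MORC2 KO replicate 1 was left out (adjusted p = 0.00259 and 0.0128), in a fit where the lone MORC2 KO sample was assumed to vary like WT and 8.16% of all tested genes were called higher.

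PCDHGC4, the second most abundant member, stood nearest to no difference among the abundant ones. It had 132 and 164 read pairs against 103 and 115, or 2.21 and 2.48 CPM against 1.73 and 2.16, so the groups were separate by a narrow margin. Its log2 fold change was 0.27 with a 95% interval of -0.13 to 0.68 (adjusted p = 0.510). PCDHGB7, whose start lies 3.37 kb before that of PCDHGA11, had 18 and 27 read pairs against 18 and 23, and the groups overlapped. The log2 fold change there was -0.03 with an interval of -0.88 to 0.81, which leaves room for a change as large as that of PCDHGA11 in either direction.

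The other 3 tested gamma genes had few reads. PCDHGB4 had 11 and 17 read pairs in MORC2 KO and 6 and 3 in WT, PCDHGA10 had 10 and 24 against 6 and 6, and PCDHGA6 had 16 and 24 against 7 and 11. Each was higher in both MORC2 KO samples, and each was among the members that passed the filter through MORC2 KO. The log2 fold changes were 1.45, 1.32 and 0.98 with adjusted p between 0.302 and 0.373. The 13 gamma genes that were not tested had 68 and 80 read pairs together against 53 and 31. PCDHGC5, the last C-type gene, was among them with 6 and 4 against 7 and 1, and its groups overlapped.

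**Figure D2:**
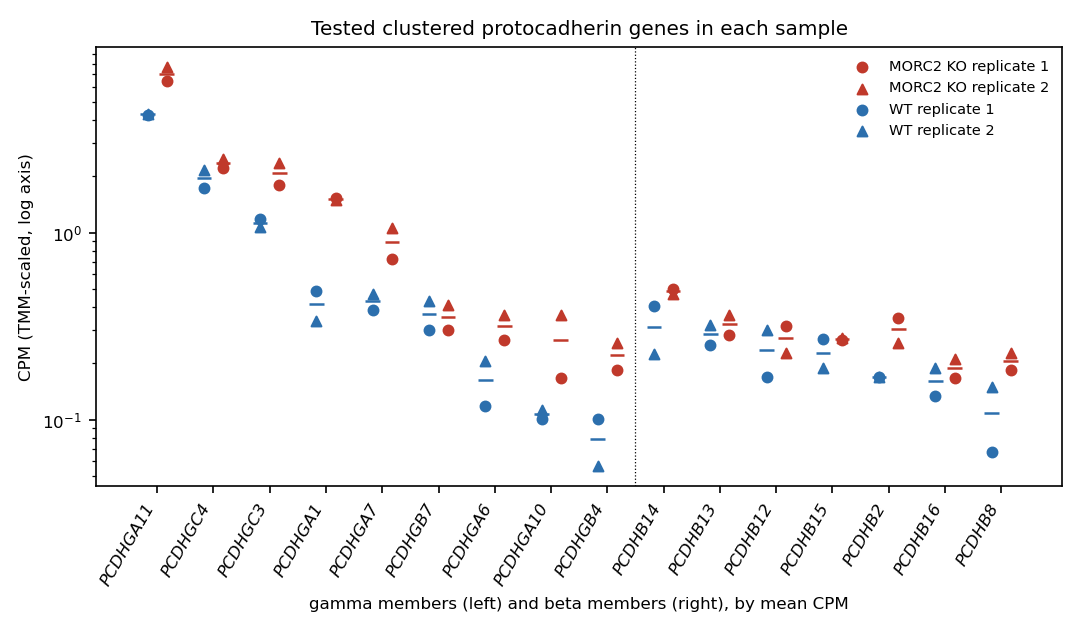
CPM of the 16 tested members in each of the 4 samples on a log axis, gamma members left and beta members right, with short lines at the mean of 2 samples. The MORC2 KO mean of PCDHGA1 is 1.51 CPM and its WT mean 0.413, while those of PCDHGB7 and most beta members overlap WT.

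The beta genes did not differ between the genotypes beyond the test's threshold. PCDHB2 had 21 and 17 read pairs in MORC2 KO and 10 and 9 in WT (log2 fold change 0.84, SE 0.46, adjusted p = 0.420). PCDHB8 had 11 and 15 against 4 and 8 (0.94, SE 0.57, adjusted p = 0.466). PCDHB14 had 30 and 31 against 24 and 12 (0.61, SE 0.38, adjusted p = 0.482). These 3 had both MORC2 KO samples above both WT samples, where 24.1% of all tested genes were above and 23.4% below. Of the 3, PCDHB2 and PCDHB8 passed the filter through their MORC2 KO values. The other 4 tested beta genes, PCDHB12, PCDHB13, PCDHB15 and PCDHB16, overlapped, with log2 fold changes from 0.19 to 0.25. The intervals were wide, as for PCDHB2 at -0.15 to 1.83, so a change of the size seen in PCDHGA11 was not detectable at these counts. All 7 tested beta genes had a positive log2 fold change, where 51.5% of all tested genes did, and 4 of the 7 passed the filter through their MORC2 KO values. The 9 beta genes that were not tested had 15 and 28 read pairs together in MORC2 KO and 27 and 22 in WT, which overlapped.

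In the alpha cluster, no member had enough reads for a test. PCDHAC1, a C-type gene, had the most, with 4 and 9 read pairs in MORC2 KO and 6 and 9 in WT. PCDHA1 had 6 and 3 against 9 and 0, and PCDHA10 had 3 and 6 against 4 and 4. None of these 3 was separate between the genotypes. PCDHAC2, the other alpha C-type gene, had 0 in every sample. PCDHA11 had 2 and 1 against 0 and 0, which over its 163 unshared bases gave the highest level per unshared kb of the cluster, 0.0745 CPM in the mean of all samples. Of the 12 alpha genes with any read, 6 had a higher mean CPM in MORC2 KO and 6 a lower one.

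Sums over all members of a cluster include the genes the filter removes. The gamma cluster summed to 881 and 1167 read pairs in MORC2 KO, compared with 569 and 519 in WT, or 16.2 ± 2.07 against 9.66 ± 0.134 CPM (SD, n = 2), a ratio of 1.68. Beta summed to 139 and 162 against 114 and 104, or 2.39 ± 0.0899 against 1.93 ± 0.0270 CPM, a ratio of 1.23. In both clusters each MORC2 KO sample was above each WT sample. Alpha summed to 20 and 38 against 27 and 16, a ratio of 1.21, and the groups overlapped. No p is given for the sums, and an exact permutation test of 2 against 2 samples cannot go below 0.333.

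The higher gamma sum came from several members. Of the 6.54 CPM by which MORC2 KO exceeded WT, PCDHGA11 made up 42.1%, PCDHGA1 16.8%, PCDHGC3 14.6%, PCDHGA7 7.05% and PCDHGC4 6.10%. Without PCDHGA1 and PCDHGA11, the remaining 20 gamma genes summed to 6.79 and 8.49 CPM in MORC2 KO and 4.81 and 5.09 in WT, a ratio of 1.54. Counted gene by gene, 19 of the 22 gamma members had a higher mean CPM in MORC2 KO and 3 a lower one, against 10 and 5 in beta. Over all tested genes, 51.5% had a positive log2 fold change. Of the 22 gamma members, 13 were too low to be tested and had 232 read pairs together over all samples, so their directions rest on few reads. By subfamily, the ratio was 1.84 for the 12 A genes, 1.45 for the 7 B genes and 1.43 for the 3 C genes.

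The median log2 fold change was 0.98 over the 9 tested gamma genes and 0.25 over the 7 tested beta genes, against 0.01 over all tested genes. Of these, 3 gamma and 4 beta genes passed the filter through their MORC2 KO values. The beta median moved to 0.080 with loess offsets on abundance and to between 0.36 and 0.45 when 1 sample was left out. Low genes as a whole were shifted upwards, with a median of 0.14 over the 3062 tested genes whose mean log2 CPM was under 0, and 12 of the 16 tested members were in that range. With no filter on low counts, all members with any read could be fitted, and the medians were 0.90 for 22 gamma, 0.23 for 15 beta and 0.36 for 12 alpha genes. The alpha median rested on members with at most 28 read pairs.

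**Figure D3:**
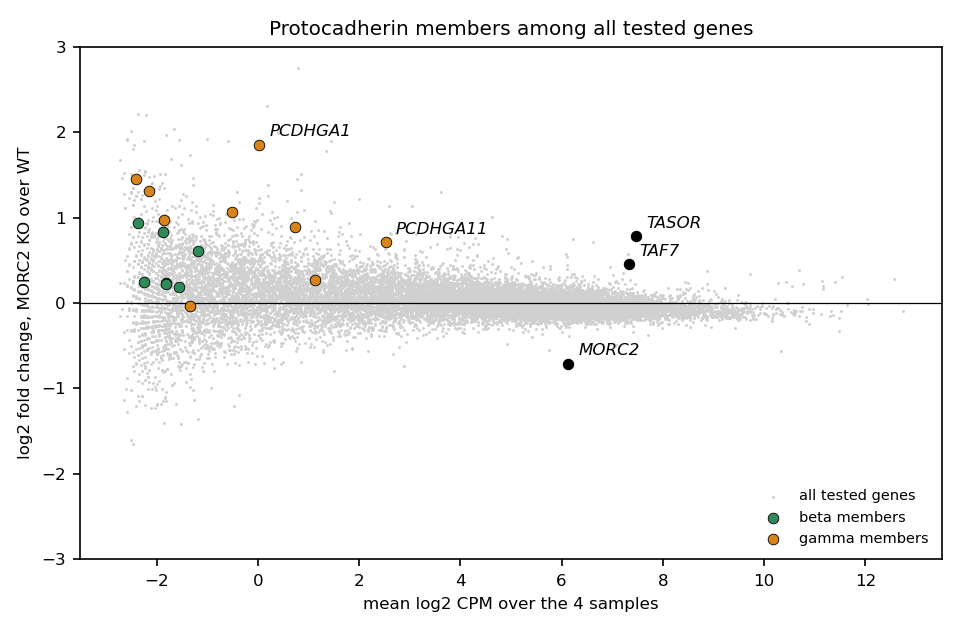
Log2 fold change of MORC2 KO over WT against mean log2 CPM for the 16675 tested genes (grey), with the tested beta (green) and gamma (orange) members and, in black, TAF7, TASOR and MORC2. PCDHGA1 at 1.86 and PCDHGA11 at 0.72 lie towards the upper edge of the genes of similar level, and most other members lie among low genes with a wide spread.

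Along the chromosome, the called genes were neither next to each other nor at 1 end. PCDHGA1 and PCDHGA11 start 91.1 kb apart with 16 gamma genes between them, of which 5 were tested and 0 called, with 3 of these higher and 0 lower at an unadjusted p under 0.05, where 8.14% of all tested genes were higher and 6.17% lower. Of those 3, PCDHGB4 and PCDHGA10 passed the filter through their MORC2 KO values. Of 43 other genes within 500 kb of the clusters, 28 were tested and had a median log2 fold change of -0.06. The test called 2 of them higher and 0 lower, where 0.588% of all tested genes were called higher and 0.03% lower. At an unadjusted p under 0.05, 4 were higher and 4 lower.

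TAF7, a single-exon gene for a subunit of the general transcription factor TFIID, lies between the beta and gamma clusters at chr5:141843793-141846087 on the minus strand. Its 5′ end is 9732 bases from the start of PCDHGA1, with the 2 genes pointing away from each other. It had 11396 and 11916 read pairs, compared with 7988 and 7263 in WT, or 185 ± 7.24 against 135 ± 1.57 CPM, without overlap. The log2 fold change was 0.45 (SE 0.06, adjusted p = 0.00248). APBB3, which encodes a protein that binds the amyloid precursor protein, was the other called neighbour and lies 221 kb before the alpha cluster. It had 1183 and 1619 read pairs against 946 and 822 (log2 fold change 0.50, SE 0.10, adjusted p = 0.0398), and its call was lost with loess offsets on abundance (adjusted p = 0.0902). SLC25A2, a mitochondrial carrier gene between beta and gamma, had at most 2 read pairs in any sample.

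The nearest tested genes outside the clusters were not called. ZMAT2 on the alpha side had a log2 fold change of -0.23 (SE 0.06, adjusted p = 0.142), and DIAPH1 on the gamma side one of -0.10 (SE 0.06, adjusted p = 0.426). Both had lower CPM in the 2 MORC2 KO samples than in the 2 WT samples. The 28 tested neighbours had values in both directions, with 4 higher and 4 lower at an unadjusted p under 0.05. The 4 higher include TAF7 and APBB3, and the 4 lower include ZMAT2. Next to TAF7 on the beta side, PCDHB15 was at 0.23.

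**Figure D4:**
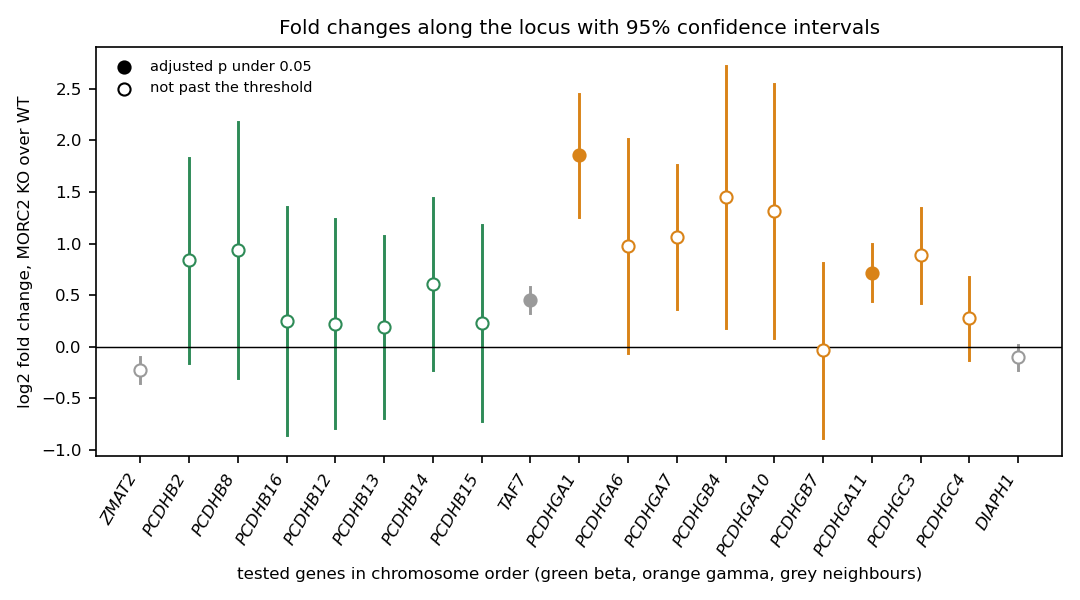
Log2 fold change of MORC2 KO over WT with its 95% confidence interval for the 16 tested members, TAF7 and the nearest tested outer neighbours, in chromosome order, with filled points where the adjusted p was under 0.05. TAF7, PCDHGA1 and PCDHGA11 are filled, beta intervals cross 0, and ZMAT2 and DIAPH1 lie at -0.23 and -0.10.

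Genes that act on or with the clustered protocadherins were looked at through lists. Among 28 architectural and silencing factors of the locus, which include CTCF, cohesin and its loaders, DNA methyltransferases and the HUSH complex, 1 was called higher and 0 lower. It was TASOR, the scaffold subunit of HUSH, with 12632 and 15590 read pairs in MORC2 KO and 7942 and 6728 in WT (log2 fold change 0.78, SE 0.07, adjusted p = 1.37e-04). Over all tested genes, 0.588% were called higher and 0.03% lower, and 8.14% were higher and 6.17% lower at an unadjusted p under 0.05. The list's median was -0.02, with 4 genes higher and 0 lower at that unadjusted threshold. Besides TASOR these were LRIF1 at 0.24 (adjusted p = 0.105), REST at 0.18 (adjusted p = 0.258) and SETDB1 at 0.14 (adjusted p = 0.307), named after their values were seen. Among 30 intracellular partners and processing enzymes, which include the kinases, the WAVE complex and the secretases that act on the cytoplasmic ends of the proteins, 0 were called in either direction, with 1 higher and 0 lower at an unadjusted p under 0.05 and a median of -0.01. The smallest p there belonged to the kinase gene PTK2B at a log2 fold change of 0.40 (adjusted p = 0.288), followed by APH1A at -0.14 and HGS at 0.12.

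Of the 12 protocadherins outside the clusters, 10 were tested and 0 called. Their median log2 fold change was 0.19, with 9 of the 10 positive and 3 higher and 0 lower at an unadjusted p under 0.05. Over all tested genes, 51.5% were positive, 8.14% higher and 6.17% lower by the same rules. PCDH10, a delta protocadherin on another chromosome, had 228 and 289 read pairs against 161 and 155 (0.55, SE 0.15, adjusted p = 0.155), PCDH17 had a log2 fold change of 0.44 and PCDH9 one of 0.17. PCDH9 was far more abundant than any clustered member, with 39593 and 39911 read pairs in MORC2 KO and 34160 and 29142 in WT. Markers of neurons, the cells in which the clustered genes are best known, had no common direction. Of 12, 9 were tested and 0 called, with a median log2 fold change of 0.00 and 1 higher and 0 lower at an unadjusted p under 0.05. They summed to between 94.3 and 96.7 CPM in MORC2 KO and between 94.9 and 98.6 in WT. SYT1, a synaptic vesicle calcium sensor, had the smallest p with a log2 fold change of 0.40 (adjusted p = 0.143), while GAP43 was at -0.32 and SYP at -0.09. DESeq2 called the same gene, TASOR, and 0 others in these lists, with no adjusted p for 1 of the neuron markers.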

How the data were processed

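RNA of HEK293T cells (2 MORC2 KO, 2 WT; labels give genotype, sgRNA and replicate) was poly-A selected and sequenced as paired 65-base reads. The authors aligned reads to T2T-CHM13v2.0 with Subread 2.0.6 and counted read pairs on strict RefSeq genes with featureCounts. The deposited values are raw counts per gene, and the file header gives options that count multi-mapping reads, ignore strand and drop pairs overlapping several genes, whereas the methods state default options. Deposited exon coordinates gave shared and unshared lengths. Symbols matched 28763 of 28775 identifiers (RefSeq, GRCh38.p14), and 0 sample columns were left unused.

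The members and lists were chosen with earlier results of these data known. Counts were compared as in the methods with filterByExpr, TMM (factors 0.986 to 1.03) and edgeR 4.0.16 in R 4.3.3, using the older quasi-likelihood F-test, with Benjamini-Hochberg adjustment over 16675 genes at 0.05. SE is the log2 fold change over the square root of F. CPM is TMM-scaled, and intervals are 95%. Depth was 53970043 to 64312514, so low members are limited by counting error. The script was tested on simulated data. Alternatives were the newer edgeR form, DESeq2 1.42.0, other scalings, filters, thresholds and offsets, replicate blocks and leaving out each sample. Genes named were MORC2, called members, in each cluster the 3 tested members with the smallest p and the 2 with the highest level, C-type genes, called, nearest and intervening neighbours within 500 kb, and of each list the called genes or the 3 with the smallest p. PCDHGB7, PCDHGB1, PCDHGB4, PCDHGA10, PCDHGA6, PCDHGA3, PCDHB13, PCDHB15, PCDHB16, PCDHA1 and PCDHA10, the members without reads or without a promoter sequence, and those compared for overlap were named after their values were seen. PCDHA4, PCDHA7, PCDHA12, PCDHGB2 and PCDHGB3 were named after their promoters were seen. 1 gene that this rule names is not reported here.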

Additional observations from a re-analysis of the deposited data

How the results depend on the processing

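PCDHGA1 and PCDHGA11 were called under all alternatives run, with log2 fold changes of 1.63 to 2.15 and 0.58 to 0.82, and no setting called a member lower. The number of members called higher was 2 in the other planned settings, 3 in both fits with the replicate block, 4 without MORC2 KO replicate 1 and 4 with no filter on low counts (463 of all genes higher, 182 lower), where PCDHGA7 and PCDHGC3 were added. Leaving out 1 sample gave 2 to 4 members, and 88 to 1397 higher and 9 to 2117 lower over all genes, against 98 and 5, with the most without MORC2 KO replicate 1. Offsets on GC content and length called 202 higher and 35 lower, loess offsets on abundance 3 lower, DESeq2 17 lower and an adjusted p under 0.10 15 lower. The beta median of 0.25 was 0.080 with loess offsets on abundance and 0.36 to 0.45 when a sample was left out. Log2 ratios of summed counts were 0.23 for beta without its top member, 0.61 to 0.87 for gamma, and -0.17 to 0.61 for alpha when a sample was left out (-0.17 without MORC2 KO replicate 2, against 0.27). COL3A1, at -0.54, ranged from -1.13 without WT replicate 2 to 0.58 without WT replicate 1. The causes were not tested, and low members are limited by depth.

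The replicate numbers mark no stated pair, and same-numbered samples deviated with a correlation of -0.124. With the replicate block, 237 genes were higher and 42 lower, and 285 and 59 once offsets on GC content and length were added. PCDHGC3 then passed the threshold (adjusted p = 0.0179 and 0.0177). With crossed numbers, a setting chosen after seeing the data, 903 were higher and 809 lower, with 4 members higher.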

Other observations

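The clusters also hold pseudogenes, which are former protocadherin exons without an intact reading frame. PCDHB17P had 0 and 1 read pairs in MORC2 KO against 0 and 0, PCDHB18P 4 and 3 against 4 and 2, PCDHB19P 2 and 10 against 4 and 0, and PCDHGB8P, which lies after PCDHGA11, 8 and 6 against 3 and 6. None of these 4 passed the filter on low counts, and the genotypes overlapped in each.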
